A study of Homo sapiens with 4 samples.

Results

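The genes described here are 10 components and targets of the NF-κB pathway, chosen by symbol: the 5 DNA-binding subunits NFKB1, NFKB2, REL, RELA and RELB, the inhibitors NFKBIA and NFKBIE, and the target genes TNFAIP3, CXCL8 and BIRC3. All 10 were found among the 28103 gene symbols of the count table, and all 10 passed the filter on low counts, which left 13572 genes. They were measured by poly(A) RNA sequencing in HEL, an established line from a human erythroleukaemia that carries erythroid as well as megakaryocytic traits. The 4 libraries comprised 2 labelled Ctrl, whose genotype is given as WT, and 2 labelled AFF4 knockdown. AFF4 is the backbone protein of the super elongation complex, which helps paused RNA polymerase II enter productive elongation. The labels list no other allele, agent or time for either group, and the knockdown method was not given in the sources. They call the libraries replicates without naming separate cultures, so p-values reflect the spread among these libraries alone, which may be technical.

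NF-κB is a family of dimeric transcription factors. In resting cells the classical dimer of p50 (from NFKB1) and RelA is held by IκB proteins, and signals from tumour necrosis factor or interleukin-1 receptors lead to IκB phosphorylation and destruction, which frees the dimer to act in the nucleus. A slower branch processes the NFKB2 precursor p100 to p52, the partner of RelB. Several target genes encode the pathway's own brakes, and many of its target genes are among those studied for rapid induction from paused polymerase.

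The libraries held between 14903878 and 19129008 counts. AFF4 itself fell, with 1650 and 1033 counts in the Ctrl pair against 338 and 319 in the knockdown pair (log2 fold change -2.07 ± 0.19, SE; edgeR adjusted p = 0.0268). With a stricter filter on low counts its edgeR adjusted p was 0.0552, the highest of 14 alternatives. Erythroid and megakaryocytic markers were high in every library, with summed levels of 8080 to 13000 and 2120 to 3080 CPM (counts normalised to library size). The Ctrl sums of the erythroid markers, led by HBG2 and HBG1, (11500 and 13000 CPM) lay above those of the knockdown (8250 and 8080 CPM). The megakaryocytic sums, at 2250 and 3080 CPM in Ctrl, also lay above those of the knockdown (2120 and 2240 CPM), by a narrow margin. The part of these marker differences in the values below was not tested. Of the other cell types checked, the 5 monocyte markers summed to at most 1.5 CPM and the 5 fibroblast markers to at most 0.402 CPM. The T cell list summed to 122 and 138 CPM in Ctrl against 81.6 and 85 CPM under knockdown, led by CD4, with its defining markers CD3D and CD3E at 0 in all 4 libraries. Endothelial markers, led by PECAM1, summed to 245 to 279 CPM, epithelial markers, led by KRT18, to 43.8 to 66.5 CPM, and B cell markers to 7.44 to 12.6 CPM.

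NF-κB dimers bind a short palindrome-like DNA element, the κB site, and its position is shown here because several of these genes are both parts and targets of the pathway. RefSeq promoter windows (GRCh38.p14, 250 bases before to 50 after a transcription start) were found for 8 of the 10 genes, 12 windows in all. They were searched on both strands for the classical κB motif and the c-Rel type κB motif, with overlapping matches merged. For each of the 7 genes with a match, the site nearest a start is printed 5′ to 3′ on the gene's strand, with the merged match in capitals.
NFKB1 (chr4:102501285-102501345, plus strand): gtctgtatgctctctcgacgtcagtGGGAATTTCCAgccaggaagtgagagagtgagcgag
NFKB2 (chr10:102395659-102395704, plus strand): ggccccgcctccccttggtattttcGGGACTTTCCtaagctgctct
REL (chr2:60881502-60881562, plus strand): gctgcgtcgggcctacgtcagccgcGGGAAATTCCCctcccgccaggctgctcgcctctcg
NFKBIA (chr14:35404796-35404856, minus strand): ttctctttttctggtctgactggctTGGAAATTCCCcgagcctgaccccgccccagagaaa
TNFAIP3 (chr6:137867178-137867238, plus strand): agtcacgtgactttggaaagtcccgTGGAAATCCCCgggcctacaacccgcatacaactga
CXCL8 (chr4:73740452-73740512, plus strand): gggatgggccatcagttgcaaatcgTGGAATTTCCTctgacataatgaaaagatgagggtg
BIRC3 (chr11:102317323-102317383, plus strand): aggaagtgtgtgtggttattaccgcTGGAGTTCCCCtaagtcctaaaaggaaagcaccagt

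The match ended 12 bases before the start in NFKB2, 37 in REL, 39 in NFKB1, 46 in TNFAIP3, 72 in NFKBIA, 82 in CXCL8 and 126 in BIRC3. NFKB2 held 4 separate matches over its windows, and TNFAIP3 and BIRC3 held 2 each. The CXCL8 window matched the c-Rel type motif only, on both strands, whereas those of NFKB2 and REL matched only the classical motif. Both RELA windows had no match. Over the 35116 promoter windows of RefSeq, 11.3% held the classical motif, 9.74% the c-Rel type motif and 17.3% either of them, against 8 of the 12 windows of these genes. A match describes letters and does not show binding in HEL cells.

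**Figure D1:**
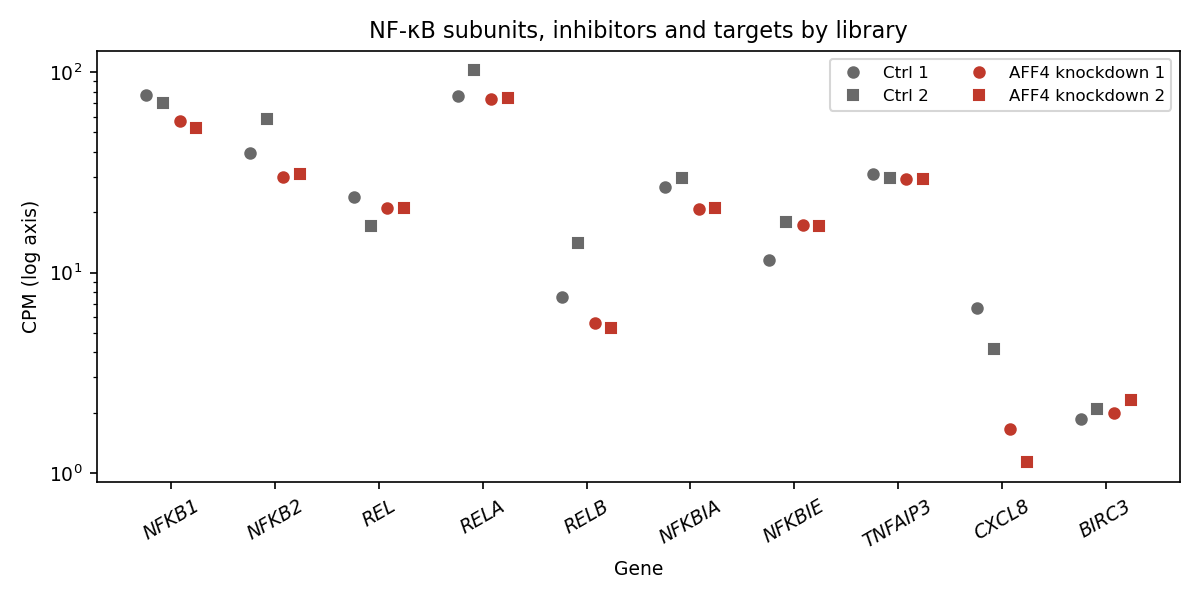
CPM of the 10 genes in each library on a log axis; grey symbols are Ctrl, red symbols AFF4 knockdown, and circles and squares are replicates 1 and 2. The knockdown libraries lie close together for most genes, whereas the Ctrl libraries are spread apart for NFKB2, RELB, NFKBIE and CXCL8.

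The 10 genes were compared between the groups to ask whether NF-κB components and targets differ when AFF4 is reduced. By the edgeR quasi-likelihood test, 0 of the 10 passed at an adjusted p under 0.05, where 0.641% of all tested genes passed. At an unadjusted p under 0.05, 5 were lower (CXCL8, RELB, NFKB2, NFKB1 and NFKBIA) and 0 higher, against 8.19% lower and 6.79% higher among all tested genes. DESeq2 called 1 of them, CXCL8 (3.21% of all genes with an adjusted value in either direction, 1.74% lower), and limma-voom called 0 (0.678%). By CPM, both knockdown libraries lay below both Ctrl libraries in 7 of the 10 genes and above in 0. Among all tested genes, 23% were separated downward and 23.1% upward. By TPM, a level scaled for gene length and depth, RELA and TNFAIP3 overlapped. RELA had 54 and 73 TPM in Ctrl against 53.8 and 54.9 TPM under knockdown. TNFAIP3 had 23.7 and 23.1 TPM in Ctrl against 23.1 and 23.4 TPM under knockdown. The calls depended on the libraries used. Without Ctrl 1, 6 of the 10 passed as lower (the 5 above and RELA) and 1 as higher (REL), where 44% of all genes passed in either direction. Without Ctrl 2, the same 5 passed as lower and NFKBIE as higher, where 48.4% passed. In both cases the lone Ctrl library was assumed to vary like the knockdown pair, which is tightly grouped. Without knockdown 1 only CXCL8 passed (0.331% of all genes), and without knockdown 2 the count was 0. The median log2 fold change was -0.34 over the 10 genes and -0.01 over all tested genes. These genes were chosen with earlier results of these data known, so the counts describe them and carry no test of their own. In bulk RNA, fewer cells of a type and less RNA per cell cannot be told apart.

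CXCL8 encodes interleukin-8, the neutrophil-attracting chemokine and a classical NF-κB target, and had the largest difference of the 10. Ctrl 1 and 2 held 125 and 62 counts of it (6.69 and 4.15 CPM), and knockdown 1 and 2 held 30 and 19 (1.66 and 1.13 CPM). Both knockdown libraries were below both Ctrl libraries, at 25.7% of the Ctrl level by the fitted fold change. The log2 fold change was -1.96 ± 0.34 (SE; 95% interval -2.77 to -1.15; edgeR adjusted p = 0.0645), so CXCL8 stood just outside the threshold. It passed in DESeq2 (adjusted p = 0.00249) and did not in limma-voom (adjusted p = 0.0725). Over 13 alternatives its log2 fold change stayed between -2.25 and -1.56, with adjusted p from 4.83e-18 to 0.218. CXCL8 also differed within each group, by -0.69 between Ctrl 2 and Ctrl 1 and by -0.56 between knockdown 2 and knockdown 1 on the log2 scale. Monocytes are a strong source of CXCL8. Their 5 markers summed to 1.5 and 1.14 CPM in Ctrl against 1.16 and 0.772 CPM under knockdown. The marker CD14 had 2 counts in Ctrl 2 and 0 in the other libraries, and CD163 had 1 count in knockdown 1 only. In Ctrl 1, Ctrl 2, knockdown 1 and knockdown 2, CSF1R had 15, 9, 10 and 9 counts. In the same order FCGR3A had 8, 4, 5 and 3 counts and MRC1 had 5, 2, 5 and 1. The part of monocytes in the CXCL8 values was not tested.

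TNFAIP3 encodes A20, a ubiquitin-editing enzyme that shuts off signalling to the IκB kinase. It had 30.9 and 29.7 CPM in Ctrl 1 and 2 and 29.2 and 29.3 CPM in knockdown 1 and 2. The groups were separated by CPM, but by a margin smaller than the difference between the Ctrl libraries. The fitted log2 difference was -0.05 ± 0.17 (SE; 95% interval -0.45 to 0.35; edgeR adjusted p = 0.933).

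BIRC3 encodes cIAP2, a ubiquitin ligase that supports signalling from tumour necrosis factor receptors and blocks cell death. It was the lowest of the 10, with 35 and 31 counts in Ctrl against 36 and 39 counts under knockdown (1.87, 2.08, 1.99 and 2.32 CPM). The groups overlapped, with a log2 fold change of 0.13 ± 0.27 (SE; 95% interval -0.51 to 0.76; edgeR adjusted p = 0.898). A difference was not detected, and the part of the low depth in this was not tested. The targets thus spanned a wide range, from CXCL8 at 25.7% of its Ctrl level to TNFAIP3 at 96.5% and BIRC3 at 109%. The promoter windows of all of them held a κB match, and a link between the matches and these values was not tested.

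Among the inhibitors, NFKBIA encodes IκBα, the principal and rapidly resynthesised inhibitor of the classical dimer. It had 26.6 and 29.5 CPM in Ctrl 1 and 2 and 20.8 and 21 CPM in knockdown 1 and 2. Both knockdown libraries were below both Ctrl libraries, with a log2 fold change of -0.42 ± 0.18 (SE; 95% interval -0.84 to -0.01; edgeR adjusted p = 0.326), and the gene did not pass.

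NFKBIE encodes IκBε, an inhibitor that acts mainly on dimers with RelA and c-Rel. It had 11.5 and 17.9 CPM in Ctrl 1 and 2 and 17.2 and 17 CPM in knockdown 1 and 2. The knockdown libraries agreed closely and lay between the Ctrl libraries. The log2 fold change was 0.22 ± 0.25 (SE; 95% interval -0.36 to 0.81; edgeR adjusted p = 0.766). Its direction rested on the Ctrl libraries, being 0.57 without Ctrl 2 and -0.06 without Ctrl 1. Scaled for gene length, the ratio of NFKBIE to NFKBIA was 0.398 and 0.558 in Ctrl 1 and 2 and 0.763 and 0.745 in knockdown 1 and 2. The knockdown ratios were both above the Ctrl ratios. The ratio is given as a description, since an exact two-sided permutation test of 2 libraries against 2 cannot go below p = 0.333.

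The subunits of the p52 and RelB branch had the largest differences among the DNA-binding subunits when all 4 libraries were used. Without Ctrl 2 that order did not hold, with NFKB1 at -0.48, RELB at -0.47 and NFKB2 at -0.38. RELB had 7.55 and 14.1 CPM in Ctrl 1 and 2 and 5.58 and 5.29 CPM in knockdown 1 and 2. Both knockdown libraries were below both Ctrl libraries, but Ctrl 1 lay nearer to them than to Ctrl 2. RELB had a log2 fold change of -0.98 ± 0.32 (SE; 95% interval -1.73 to -0.24; edgeR adjusted p = 0.214). It was -0.47 without Ctrl 2 and -1.37 without Ctrl 1, so its size depended on which Ctrl library was used. With no filter on low counts RELB passed at the same fold change (edgeR adjusted p = 0.0189), within a range of 8.1e-16 to 1 over 14 alternatives.

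NFKB2, the p100 precursor of p52, was also highest in Ctrl 2 and lowest in the knockdown libraries, with 39.6 and 58.4 CPM in Ctrl 1 and 2 and 30 and 31.1 CPM in knockdown 1 and 2. The log2 fold change was -0.68 ± 0.22 (SE; 95% interval -1.21 to -0.16; edgeR adjusted p = 0.218), and this was -0.38 without Ctrl 2 and -0.94 without Ctrl 1. NFKB2 and RELB had a negative value in each of the 14 alternatives, as did NFKB1, RELA, NFKBIA and the nearly unchanged TNFAIP3. CXCL8 was negative in each of its 13.

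NFKB1, the p105 precursor of p50, had 76.6 and 70 CPM in Ctrl 1 and 2 and 57.3 and 52.5 CPM in knockdown 1 and 2. The groups did not overlap, and the Ctrl libraries differed by only -0.13 on the log2 scale. The log2 fold change was -0.42 ± 0.16 (SE; 95% interval -0.79 to -0.04; edgeR adjusted p = 0.286). It moved little with the libraries used, from -0.48 to -0.35 when 1 library was left out.

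RELA, the transactivating subunit p65 of the classical dimer, had 76.2 and 102 CPM in Ctrl 1 and 2 and 73.5 and 74.6 CPM in knockdown 1 and 2. Ctrl 1 was close to the knockdown libraries, and Ctrl 2 stood apart. The log2 fold change was -0.26 ± 0.18 (SE; 95% interval -0.69 to 0.17; edgeR adjusted p = 0.575), and it was -0.04 without Ctrl 2 and -0.46 without Ctrl 1.

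REL, the haematopoietic subunit c-Rel, had 23.7 and 17 CPM in Ctrl 1 and 2 and 21.1 CPM in both knockdown libraries. The knockdown libraries lay between the Ctrl libraries, and the log2 fold change was 0.05 ± 0.22 (SE; 95% interval -0.46 to 0.56; edgeR adjusted p = 0.948). It was 0.31 without Ctrl 1 and -0.17 without Ctrl 2, so no direction can be given. In GENCODE v29 an overlapping RNA on the same strand, not listed in the count table, shares 5702 of the 13170 exonic bases of REL, and the share of reads from each cannot be told apart.

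**Figure D2:**
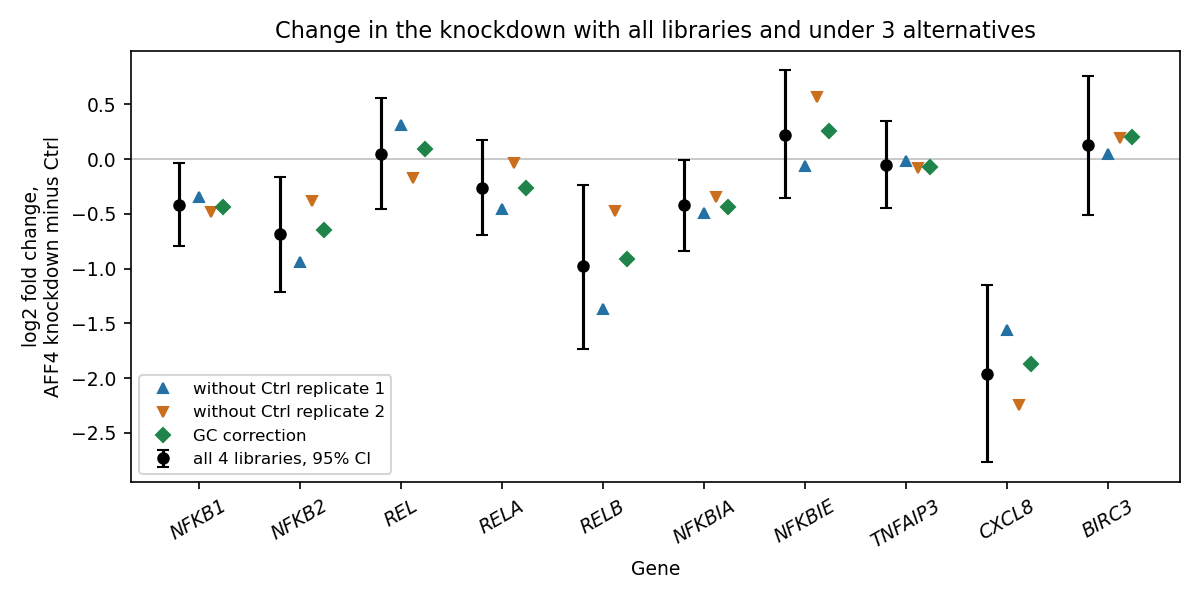
Log2 fold change of each gene (AFF4 knockdown minus Ctrl), with black points and bars for all 4 libraries and their 95% interval; triangles leave out Ctrl 1 or Ctrl 2, and green diamonds follow a correction for GC content. CXCL8 stays between -2.25 and -1.56 in all of them, whereas REL and NFKBIE change sign with the Ctrl library left out.

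Per length, RELA was the most abundant of the 10 in Ctrl, at 63.5 ± 13.5 TPM (transcript level scaled for length and depth; mean ± SD, n = 2). NFKBIA (46 ± 3.68 TPM), NFKB1 (45.6 ± 2.5 TPM) and NFKB2 (42.7 ± 11.9 TPM) followed and did not differ from each other beyond their spread. The Ctrl ranges of TNFAIP3 (23.4 ± 0.445 TPM) and NFKBIE (22.2 ± 6.98 TPM) overlapped as well. So did those of NFKBIE and RELB (13.9 ± 6.02 TPM), and of RELB and CXCL8 (9.28 ± 3 TPM). Within each Ctrl library, however, NFKBIE was above RELB, at 17.3 against 9.64 TPM in Ctrl 1 and 27.1 against 18.2 TPM in Ctrl 2. REL had 6.01 ± 1.34 TPM and BIRC3 1.02 ± 0.0823 TPM. In both Ctrl libraries REL was below CXCL8, and BIRC3 was below REL. In the knockdown RELA was at 54.3 ± 0.763 TPM and CXCL8 at 2.46 ± 0.651 TPM, which placed CXCL8 below REL (6.42 ± 0.0291 TPM). The ratio of RELB to RELA was 0.178 and 0.249 in Ctrl 1 and 2 and 0.137 and 0.128 in knockdown 1 and 2. The ratio of NFKB2 to NFKB1 overlapped between the groups, at 0.722 and 1.16 in Ctrl against 0.729 and 0.826 under knockdown.

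The Ctrl libraries differed from each other far more than the knockdown libraries did. Over the 10 genes the median absolute log2 difference was 0.45 between the Ctrl libraries and 0.04 between the knockdown libraries, and over all tested genes it was 0.35 and 0.09. The difference followed the GC content of the transcripts. RELB (65.4% GC), NFKB2 (62.4%) and NFKBIE (61%) were higher in Ctrl 2 by 0.90, 0.56 and 0.63 on the log2 scale, and CXCL8 (33.4%) and REL (38.7%) were lower there by -0.69 and -0.48. Across the 10 genes Pearson's r between GC content and this difference was 0.864 and Spearman's rho 0.855, given as a description because all points come from the same pair of libraries. Over all tested genes the median difference went from -0.39 in the lowest of 5 GC bins to 0.65 in the highest, whereas between the knockdown libraries it went from -0.05 to 0.11.

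**Figure D3:**
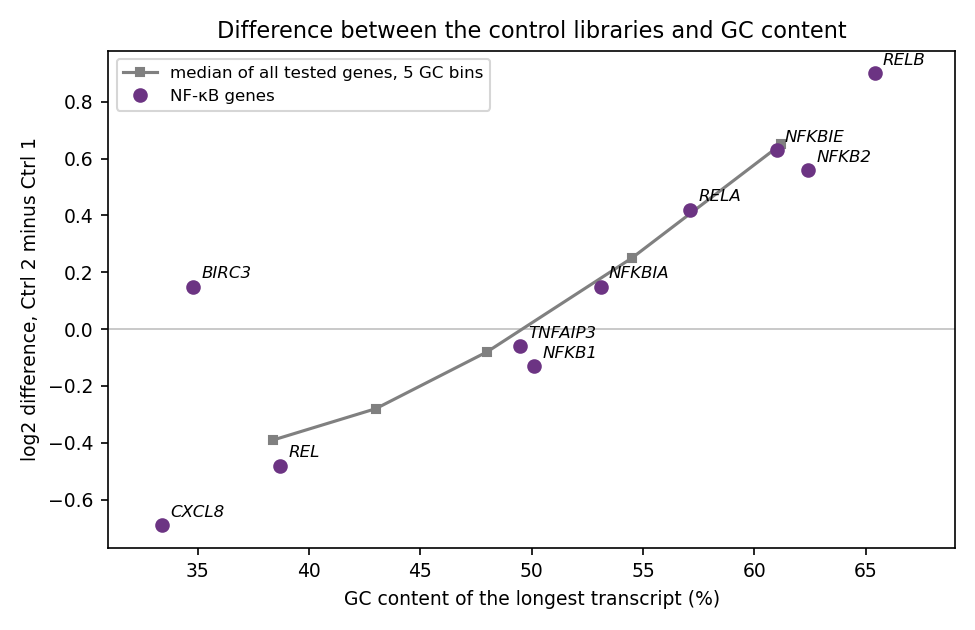
Log2 difference between Ctrl 2 and Ctrl 1 against the GC content of the longest transcript (%), with purple points for the 10 NF-κB genes and grey squares for medians of all tested genes in 5 GC bins. The line of the bin medians runs from -0.39 at 38.4% GC to 0.65 at 61.2% GC, and the genes within that span lie near it. CXCL8, BIRC3, NFKB2 and RELB lie beyond its ends. CXCL8 (-0.69) is below the lowest bin median, RELB (0.90) is above the highest, and BIRC3 (0.15) is above the low-GC end.

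A GC trend was then removed from each library, an added step that was decided on with the data in view. It left the fold changes almost in place and gave smaller errors for all but BIRC3. CXCL8 had -1.87 ± 0.22, RELB -0.91 ± 0.13, NFKB2 -0.65 ± 0.08, NFKB1 -0.44 ± 0.07, NFKBIA -0.44 ± 0.08 and RELA -0.26 ± 0.06 (log2 fold change ± SE). These 6 genes passed as lower after the correction (edgeR adjusted p = 0.00143, 0.00331, 0.00147, 0.0052, 0.00729 and 0.0168), where 28.3% of the genes tested passed in either direction. Of the 13164 genes tested there, 1892 passed as lower and 1834 as higher. REL (0.09 ± 0.09), NFKBIE (0.26 ± 0.10), TNFAIP3 (-0.07 ± 0.08) and BIRC3 (0.20 ± 0.28) did not pass (edgeR adjusted p = 0.476, 0.0939, 0.515 and 0.634).

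The rest of the pathway was read from 6 lists with 94 genes in all, of which 70 were tested. By edgeR 0 of the 70 passed, where 0.641% of all tested genes did. At an unadjusted p under 0.05 there were 3 higher and 3 lower genes (6.79% and 8.19% of all tested genes), DESeq2 called 1 (FBXW11) and limma-voom 0. The median log2 fold change of the 70 was -0.07. Among them 19 had both knockdown libraries below both Ctrl libraries and 13 above, where 23% and 23.1% of all tested genes were so separated.

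The 6 other inhibitors and atypical IκB proteins had 0 called, 1 lower at an unadjusted p under 0.05 and a median of -0.16. That 1 gene was BCL3, a nuclear IκB protein that partners p50 and p52. BCL3 had 9.26 and 17.8 CPM in Ctrl 1 and 2 and 6.52 and 7.19 CPM in knockdown 1 and 2, and like RELB and NFKB2 it was highest in Ctrl 2. Its log2 fold change was -0.97 ± 0.32 (SE; edgeR adjusted p = 0.226). NFKBIB, which encodes IκBβ, had 0.44 ± 0.26, and the repressor NKRF had -0.26 ± 0.18 (SE; edgeR adjusted p = 0.500 and 0.585).

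The 13 kinases had 0 called, 0 at an unadjusted p under 0.05 and a median of 0.07, within a range of -0.29 to 0.36. The IκB kinase subunits CHUK (IKKα) and IKBKG (NEMO) had log2 fold changes of -0.29 ± 0.16 and 0.36 ± 0.23, and the related kinase TBK1 had 0.18 ± 0.19 (SE; edgeR adjusted p = 0.463, 0.546 and 0.758).

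The adaptors and ubiquitin machinery (20 tested of 22) had 0 called and a median of -0.11. FBXW11, a β-TrCP protein that recognises phosphorylated IκB for destruction, had 72 and 60.2 CPM in Ctrl 1 and 2 and 34.5 and 33.9 CPM in knockdown 1 and 2. Both knockdown libraries were far below both Ctrl libraries. Its log2 fold change was -0.95 ± 0.17 (SE; edgeR adjusted p = 0.068), just outside the threshold like that of CXCL8. TRAF5, an adaptor of the tumour necrosis factor receptor family, was higher at 13.9 and 15.4 CPM in the knockdown against 10.4 and 7.03 CPM in Ctrl (0.74 ± 0.24; edgeR adjusted p = 0.223). The paracaspase MALT1 had 0.44 ± 0.19 (edgeR adjusted p = 0.342).

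Not all receptors and ligands passed the filter on low counts. Of 15 receptors 11 were tested, with 0 called and a median of -0.25, and CD40, IL1RAP and LTBR had log2 fold changes of -0.42 ± 0.25, -0.25 ± 0.20 and -0.12 ± 0.23 (SE; edgeR adjusted p = 0.509, 0.649 and 0.882). The receptor genes at an unadjusted p under 0.05 were TLR2 (-0.99 ± 0.37) and IL18R1 (0.80 ± 0.26), both under 5 CPM and named after their values were seen (edgeR adjusted p = 0.273 and 0.217). Of 10 ligands 5 were tested, with 0 called, 0 at an unadjusted p under 0.05 and a median of -0.21. The interleukin-1β gene IL1B, an activator of the classical branch, was well expressed, with 317 and 303 CPM in Ctrl 1 and 2 and 271 and 267 CPM in knockdown 1 and 2 (-0.21 ± 0.13; edgeR adjusted p = 0.522). IL18 had 0.52 ± 0.22 (edgeR adjusted p = 0.337).

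Of 28 other NF-κB target genes, 15 were tested, 6 were at 0 in all 4 libraries, and 0 were called. Their median was -0.05, with 11 negative and 4 positive values, where 51.2% of all tested genes were negative. Their range was -0.52 to 0.79, so the size of the CXCL8 difference was not seen among them. The adhesion receptor ICAM1 had 25.9 and 36.6 CPM in Ctrl 1 and 2 and 25.1 and 23.1 CPM in knockdown 1 and 2 (-0.37 ± 0.22; edgeR adjusted p = 0.499). The peptide transporter TAP1 had 0.39 ± 0.23 and the survival gene BCL2L1 -0.21 ± 0.17 (SE; edgeR adjusted p = 0.500 and 0.652). The 1 gene at an unadjusted p under 0.05, PLAU, which encodes urokinase, was higher from a level near 1 CPM and was named after its value was seen (0.79 ± 0.30; edgeR adjusted p = 0.289).

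**Figure D4:**
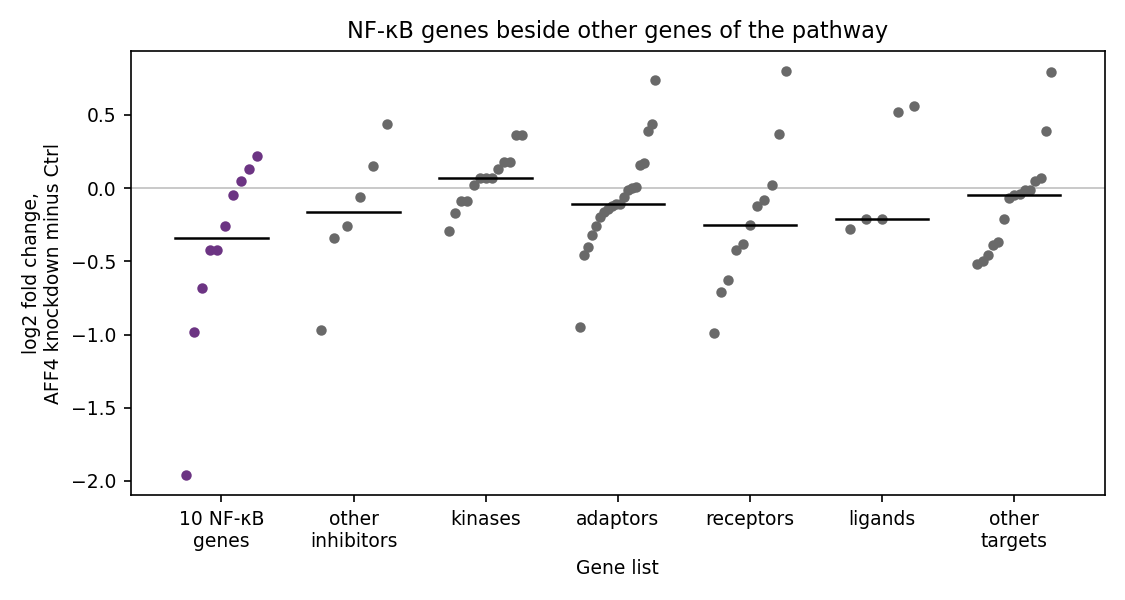
Log2 fold change (AFF4 knockdown minus Ctrl) of the 10 NF-κB genes (purple) and of the tested genes of 6 other pathway lists (grey), with a black line at each median. The medians run from -0.34 for the 10 genes to 0.07 for the kinases, and CXCL8, at -1.96, is the lowest point.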

How the data were processed

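The authors deposited one table of whole-number read counts per gene symbol; per the submitters' processing notes, fastp 0.13.1, HISAT2 2.1.0, featureCounts 1.6.1 and build hg38 were used, with no order or role given. The annotation, the strand setting and the handling of multi-mapped reads were not given in the sources. The labels' protocols name 2 RNA kits and several sequencers without saying which library used which. Columns were matched to samples by name. Genes were kept by filterByExpr (minimum count 10, minimum total 15), scaled by TMM and tested with edgeR 4.0.16 (quasi-likelihood F test, group only, all 4 libraries, R 4.3.3), with Benjamini-Hochberg adjustment over 13572 genes and a threshold of 0.05. The SE was derived from the log2 fold change and the F statistic. CPM use TMM-scaled library sizes. TPM, lengths and GC content use GENCODE v29 (GRCh38), which gave GC values for 97% of the tested genes; TPM depends on exonic lengths that may differ from those the authors counted on. All 10 genes were named; of each pathway list, called genes and the 3 with the smallest p at 5 CPM or more were named. The members and lists were chosen with earlier results of these data known. Alternatives were other scalings and filters, DESeq2 1.42.0, limma-voom (limma 3.58.1), a replicate block, each library left out and, added later, a GC correction (lowess, span 0.4). Counts were also simulated for all genes of the table, with the same spread for every gene and library and no GC trend. Of these, 13581 genes passed the filter on low counts, and a small part had been given a change. There edgeR recovered 59% of genes changed 2-fold and 100% of those changed 4-fold. The Ctrl libraries do not meet that setting, so these shares need not hold for the deposited counts.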

Additional observations from a re-analysis of the deposited data

How the results depend on the processing

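With 2 libraries a group, and Ctrl libraries that differ from each other, the number of genes past a threshold depends strongly on the setting, while the fold changes move less. Over all genes 87 passed, against 734 with no filter on low counts, 5 with at least 5 CPM in at least 2 libraries, 410 in DESeq2, 888 with the replicate block, 3726 after the GC correction, 4660 after the GC correction with the block, and 46 to 6722 with 1 library left out. Of the 10 NF-κB genes 0 passed, against 2 with no filter (RELB and CXCL8, where 3.89% of 18862 genes passed), 1 in DESeq2 (3.21% of 12782), 3 with the replicate block (NFKB2, RELB and CXCL8, where 6.54% of 13572 passed), 6 after the GC correction without or with the block (28.3% and 35.4% of 13164), and 0 to 7 with 1 library left out. The higher numbers came without Ctrl 1 (7, where 44% of all genes passed) and without Ctrl 2 (6, where 48.4% passed). In those fits the lone Ctrl library is assumed to vary like the knockdown pair. CXCL8, NFKB1, NFKB2, RELB and NFKBIA passed in both of these fits, and CXCL8 also passed without knockdown 1 (edgeR adjusted p = 0.0268). Of the other pathway genes 0 passed, against 2 with no filter, 1 in DESeq2, 3 with the block, 19 and 23 after the GC correction without and with the block, and 0 to 35 with 1 library left out.

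The labels share replicate numbers across the groups but do not say that a number marks a shared day or culture. The log2 differences between replicates 1 and 2 correlated by 0.341 between the groups, across 13572 genes. With the replicate block, NFKB2 (-0.66), RELB (-0.93) and CXCL8 (-1.95) passed, which they did not without it. CXCL8 also passed with no filter (-1.96) and in DESeq2 (-1.96), and RELB with no filter (-0.98). After the GC correction, without and with the block, the genes that newly passed had NFKB1 -0.44 and -0.44, NFKB2 -0.65 and -0.65, RELA -0.26 and -0.26, RELB -0.91 and -0.91, NFKBIA -0.44 and -0.44, and CXCL8 -1.87 and -1.86. AFF4 missed the threshold with the stricter filter (-2.10). That filter left out CXCL8 and BIRC3.

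With 1 library left out, the log2 fold change ran from -0.48 to -0.35 for NFKB1, -0.94 to -0.38 for NFKB2, -0.17 to 0.31 for REL, -0.46 to -0.04 for RELA, -1.37 to -0.47 for RELB, -0.49 to -0.35 for NFKBIA, -0.06 to 0.57 for NFKBIE, -0.08 to -0.02 for TNFAIP3, -2.25 to -1.56 for CXCL8 and 0.02 to 0.26 for BIRC3. The sign turned for REL without Ctrl 2 (-0.17) and for NFKBIE without Ctrl 1 (-0.06). The knockdown CPM of both genes lay between the Ctrl values, so the sign follows the Ctrl library kept. Why the Ctrl libraries differ was not tested. The median over the 10 genes was -0.34 and ran from -0.40 to -0.26 with 1 library left out. BIRC3 and CXCL8 had the lowest counts of the 10 genes, with at most 125 in a library.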
